A study of Mus musculus with 8 samples.

Results

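The Hox genes are the 39 protein-coding genes of the mouse whose symbol is Hoxa, Hoxb, Hoxc or Hoxd followed by a number, of 21900 protein-coding genes in the RefSeq annotation of GRCm38.p6. They were described here through every SMC1 peak in the 4 clusters they form and in the 200 kb on either side of each cluster. These windows held 0 of the 1684 peaks listed for neurons given NMDA and 23 of the 12359 peaks listed for resting neurons. NMDA-treated cultures were wild-type cortical neurons from Swiss-Webster embryos of day 16, grown for 13 days in vitro, exposed to 50 µM NMDA, an agonist of glutamate receptors, for 10 min and collected after 50 min in medium without the drug. Resting cultures were the same kind of wild-type neurons without treatment. Each condition had 2 immunoprecipitated samples and 2 input samples. The growth text also describes etoposide, which no sample's treatment label names. The cell type rests on the labels, since a peak list cannot be checked against marker transcripts.

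Hox genes encode homeodomain transcription factors that give cells their position along the body axis. The genes of a cluster lie side by side, are transcribed in the same direction and carry paralog group numbers, low at the 3′ end of the cluster, whose genes act towards the head, and high at the 5′ end, whose genes act towards the tail. In the embryo the forebrain lies anterior to the domains of Hox transcription, and silent clusters are typically covered by Polycomb complexes. SMC1 is a subunit of the cohesin ring, which extrudes chromatin loops and is often halted at sites bound by the insulator protein CTCF. Binding sites of CTCF inside the HoxA and HoxD clusters are known from embryos and cultured cells as borders between active and silent Hox genes.

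The strength of a peak is column 8 of the authors' list, the −log10 p of the peak caller summed over the 2 replicates. It grows with library depth as well as with enrichment, and depth is unknown from the lists, so it ranks peaks within 1 list only. There was 1 list per condition, so no test between conditions was made and no p-value is given. Intervals for shares are exact Clopper-Pearson 95% intervals and cover only counting error over the peaks or genes counted. The labels call the replicates biological but do not say whether they came from separate litters. All positions are on GRCm38.

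Promoters could be read for 22 of the 39 Hox genes, from RefSeq sequences of GRCm38.p6. Among these only the Hoxa5 promoter was touched by a resting peak, and inside the clusters 1 noncoding promoter, that of the antisense RNA gene Hoxd3os1, was touched as well. Both are shown because they are the stretches of SMC1 peak sequence that could be read. The first lies at chr6:52204588-52204837 and the second at chr2:74716131-74716380. Both are on the minus strand, are printed 5′ to 3′ and end at the base before the transcription start. Capitals mark the match on either strand to a loose form of the CTCF core, CC, any 4 bases, G, any 2 bases and GGC.
Hoxa5: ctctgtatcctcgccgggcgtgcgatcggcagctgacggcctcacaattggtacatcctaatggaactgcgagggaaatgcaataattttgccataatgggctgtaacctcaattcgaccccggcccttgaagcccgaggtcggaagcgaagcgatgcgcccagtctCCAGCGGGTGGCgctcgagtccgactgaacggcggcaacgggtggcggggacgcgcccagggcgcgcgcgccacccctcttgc
Hoxd3os1: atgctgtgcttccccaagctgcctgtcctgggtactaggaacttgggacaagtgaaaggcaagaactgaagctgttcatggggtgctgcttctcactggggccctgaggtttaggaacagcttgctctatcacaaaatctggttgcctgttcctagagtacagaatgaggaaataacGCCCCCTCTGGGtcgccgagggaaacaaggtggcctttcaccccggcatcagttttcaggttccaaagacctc

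The peak covered 239 of the 250 bases of the Hoxa5 promoter and 132 of the 250 bases of the Hoxd3os1 promoter. The Hoxa5 promoter had a GC content of 63.6% and 28 CpG dinucleotides, and the Hoxd3os1 promoter 52.8% and 4. The capitals of Hoxa5 lay 31 bp from the listed summit of the peak, and those of Hoxd3os1, on the opposite strand, 236 bp from its summit. This motif was chosen after the letters had been seen, and it is common: 21.4% of all 32851 promoter windows held it on either strand, as did 9 of 24 Hox windows, so a match is a description and not a site. A stricter form, CCA, any 2 bases, AG, any 2 bases and GGC, was in 0 of 24 Hox windows and 2.07% of all windows, and the short core AGGNGGC was in 7 of 24 Hox windows and 8214 of all 32851. The Hoxd3os1 promoter held 2 matches to the short core, 1 of them overlapping the capitals, and the Hoxa5 promoter none.

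No peak of the NMDA list lay in any Hox window, whereas all 4 clusters held resting peaks. Inside the clusters there were 11 resting peaks over 492 kb, and in the flanks 12. The density inside was 22.4 peaks per Mb, against 7.5 in the flanks and 4.57 over the whole resting list. Hox clusters are dense in genes, and no random placement of peaks was tried, so nothing more than these densities is stated.

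**Figure D1:**
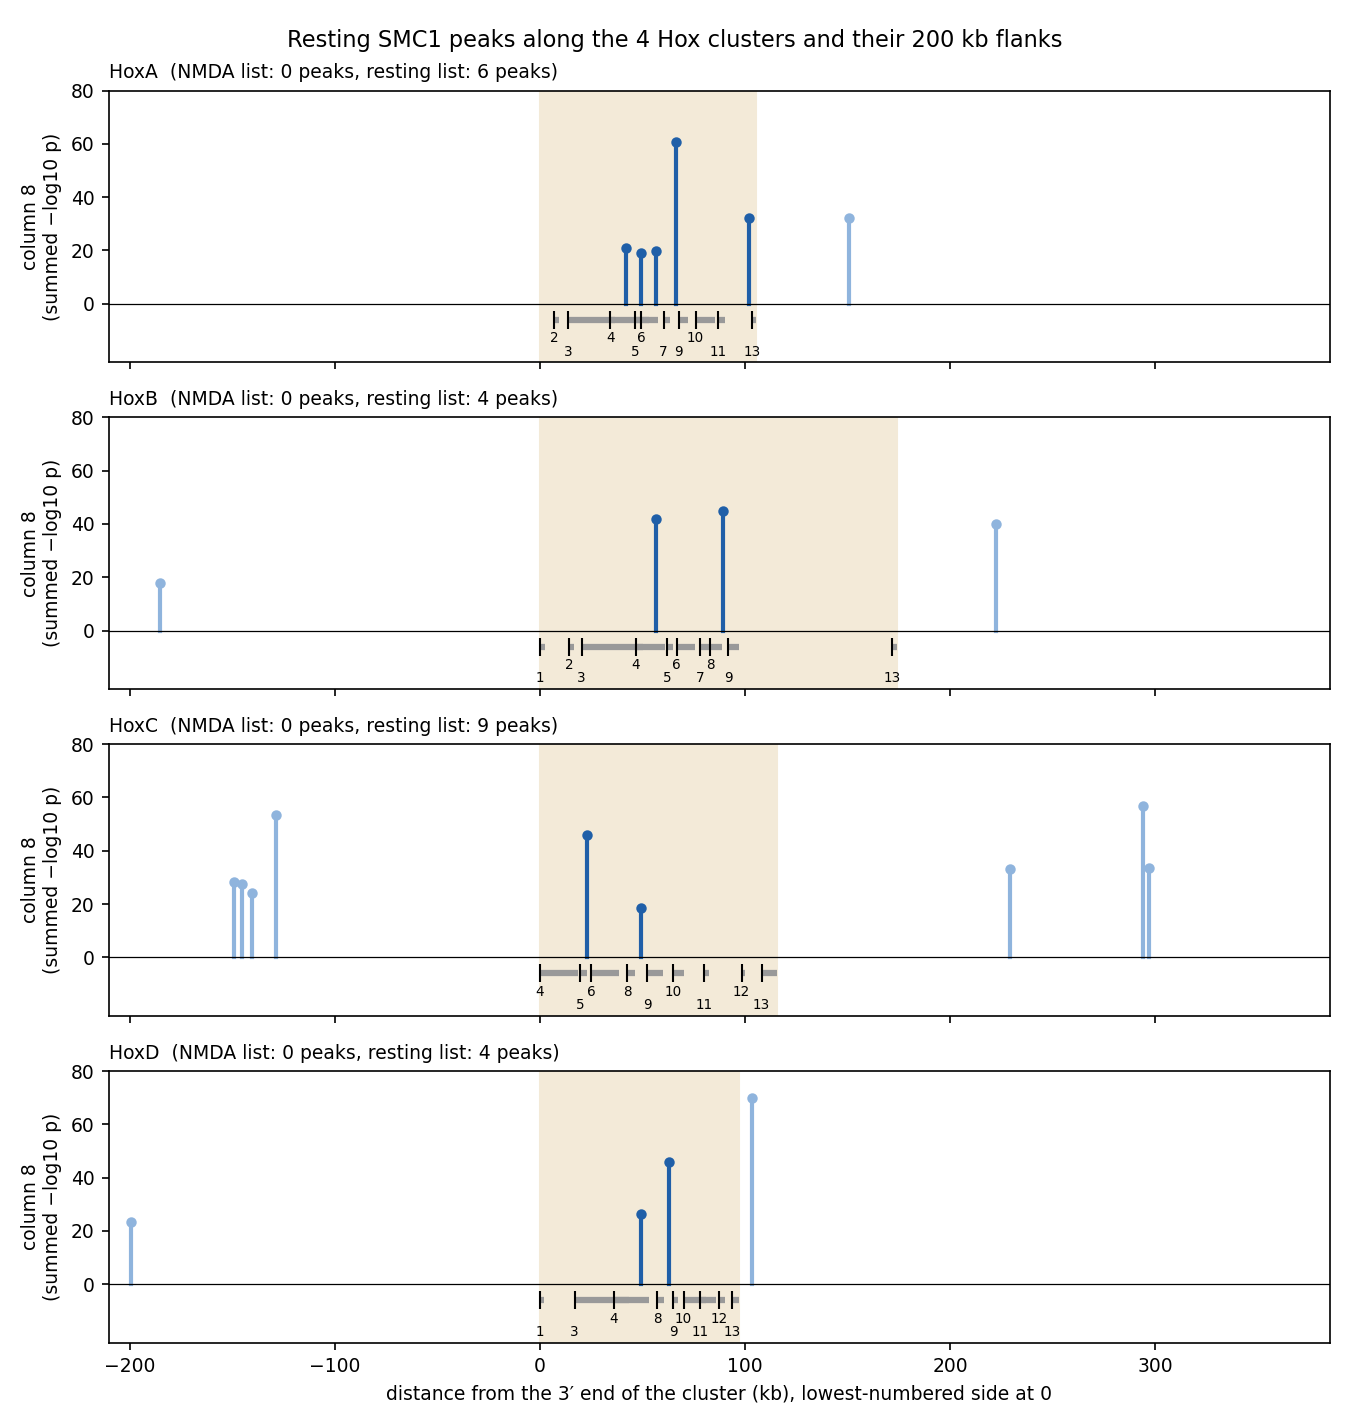
Resting SMC1 peaks in the 4 Hox windows, by distance from the 3′ end of each cluster (kb, horizontal) and by column 8 (vertical); dark stems lie inside a cluster and light stems in its flanks, the shaded span is the cluster, grey bars are the gene bodies shown, and ticks with paralog group numbers are gene 3′ ends. No peak inside a cluster lies at the genes of groups 1 and 2, and each cluster has 1 peak just past the 3′ end of its group 9 gene.

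The clusters differed in how many peaks they held. HoxA (chromosome 6) had 5 inside and 1 in its flanks. HoxB (chromosome 11, 96194316 to 96368254), the longest at 174 kb, had 2 inside and 2 in its flanks. HoxC (chromosome 15, 102921131 to 103036856) had 2 inside and 7 in its flanks, and was the 1 cluster with no lower density in its flanks (1.73 per 100 kb inside, 1.75 outside). HoxD (chromosome 2, 74668225 to 74765142) had 2 inside and 2 in its flanks. The density inside HoxA, 4.74 per 100 kb, was the highest of the 4, and that of HoxD was 2.06 and that of HoxB 1.15.

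A resting peak recurred at 1 place in all 4 clusters, just past the 3′ end of the group 9 gene, towards the gene with the next lower number. In HoxA the strongest peak inside any cluster lay there, between Hoxa7 and Hoxa9 at 52221376 to 52222027, with a column 8 of 60.8 (42.3 and 18.5 in the replicate columns). Its midpoint was 1.40 kb past the 3′ end of Hoxa9, a posterior gene also known for its role in blood stem cells. It ranked 1150 of 12359 in the resting list.

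In HoxB the matching peak, at 96278785 to 96279234 between Hoxb9 and Hoxb8, had a column 8 of 44.7 (29.3 and 15.4). It was 2.41 kb past the 3′ end of Hoxb9 and ended 166 bp before the annotated body of Hoxb8. In HoxD the peak between Hoxd9 and Hoxd8, at 74702009 to 74702950, had 45.8 (34.98 and 10.8), lay 2.27 kb past the 3′ end of Hoxd9 and was the widest in the 4 windows at 942 bp. HoxC had the weakest of these 4, at 102987247 to 102987789 between Hoxc9 and Hoxc8, with 18.6 (9.20 and 9.44), 3.07 kb past the 3′ end of Hoxc9 and at rank 11761. So the position was shared by the 4 clusters and the strength was not. In HoxA, HoxB and HoxD the first replicate column was well above the second, and in HoxC they were close.

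Of the 35 intervals between successive 3′ ends in the 4 clusters, 11 held a resting peak, 1 each. All 4 intervals that follow a group 9 gene were among them, and 7 of the other 31. This position was picked out after the peaks had been mapped, so its count is a description.

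The second stretch with peaks lay among the genes of groups 4 to 6, which pattern the hindbrain, neck and upper trunk. In HoxA it held 3 weak peaks. The first, at 52197041 to 52197621, lay between the 3′ ends of Hoxa4 and Hoxa5 with a column 8 of 21.1 (9.42 and 11.7). The second, at 52204496 to 52204826, covered the Hoxa5 promoter printed above and lay 31 bp from the 3′ end of Hoxa6, with 18.98 (9.30 and 9.67); at 331 bp it was the narrowest in the windows. The third, at 52211528 to 52212280, lay between Hoxa6 and Hoxa7 with 19.9 (8.91 and 10.98). All 3 were below the list median of 30.2, and their replicate columns were close to each other.

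The other clusters had fewer and mostly stronger peaks there. In HoxB a peak at 96311556 to 96312096 lay between the 3′ ends of Hoxb5 and Hoxb4, inside the long annotated body of Hoxb3, with a column 8 of 41.8 (32.1 and 9.73). In HoxC a peak at 103013546 to 103014083 covered the annotated start of Hoxc5, 1.93 kb past the 3′ end of Hoxc6, with 46.0 (25.2 and 20.8). HoxD lacks genes of groups 5 to 7, and its peak at 74715734 to 74716262 lay between the 3′ ends of Hoxd8 and Hoxd4, over the start of Hoxd3os1 printed above, with 26.5 (17.1 and 9.39). The remaining peak inside a cluster, at 52257020 to 52257650 between Hoxa11 and Hoxa13, was 1.52 kb past the 3′ end of Hoxa13, the most posterior gene of HoxA, and had 32.1 (24.6 and 7.47).

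By paralog group, the genes near a resting peak were those in the middle of the clusters. All 22 genes of groups 3 to 9 had a resting peak within 10 kb, against 0 of 5 genes of groups 1 and 2 and 4 of 12 genes of groups 10 to 13; over all protein-coding genes the share was 38.2%. Within 2 kb the counts were 11 of 22, 0 of 5 and 1 of 12, and the share over all genes 28.6%. The groups were divided here after the distances had been seen. Neighbouring genes share peaks: the 26 genes rested on 12 peaks. The genes without a peak at 10 kb included Hoxa2, Hoxb1, Hoxb2 and Hoxd1, which act in the hindbrain, and Hoxa11, Hoxb13, Hoxc10 to Hoxc13, Hoxd11 and Hoxd12, which act in the posterior trunk and, in HoxA and HoxD, the limb.

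**Figure D2:**
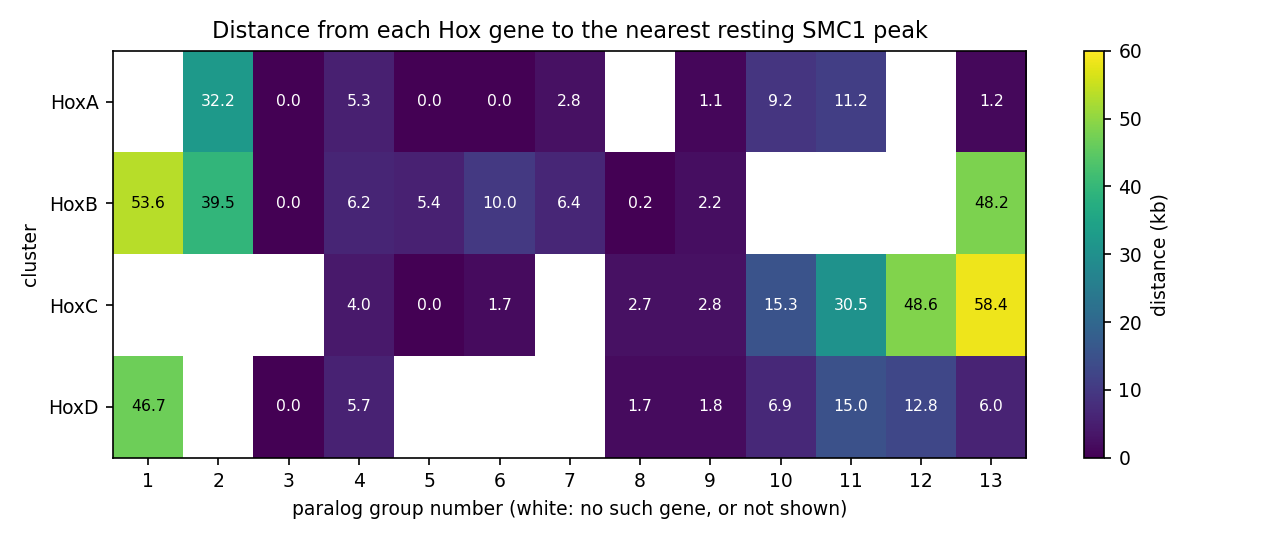
Distance in kb from the annotated body of each Hox gene to the nearest resting SMC1 peak, with paralog groups 1 to 13 across and the 4 clusters down; white cells are genes that do not exist or are not shown. Distances are at most 10.0 kb in groups 3 to 9 and at least 32.2 kb in groups 1 and 2.

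The distances showed the same order. Genes of groups 1 and 2 lay 32.2 to 53.6 kb from the nearest resting peak, those of groups 3 to 9 at most 9.99 kb, and those of groups 10 to 13 between 1.20 and 58.4 kb. In HoxC the distance grew along the posterior genes, with 15.3 kb for Hoxc10, 30.5 kb for Hoxc11, 48.6 kb for Hoxc12 and 58.4 kb for Hoxc13. Hoxd13, at the posterior end of HoxD, was 6.04 kb from a peak, and Hoxb13, which stands apart from the rest of HoxB, 48.2 kb. The 3 genes of group 3 all overlapped a peak and have long annotated bodies, of 44.0 kb for Hoxa3, 40.8 kb for Hoxb3 and 36.3 kb for Hoxd3.

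Of the 12 Hox genes with a resting peak in the body or within 2 kb of it, 5 overlapped one: Hoxa3, Hoxa5, Hoxb3, Hoxc5 and Hoxd3. The other 7 were Hoxa6 (31 bp from a peak), Hoxb8 (166 bp), Hoxa9 (1069 bp), Hoxa13 (1202 bp), Hoxc6 (1663 bp), Hoxd8 (1664 bp) and Hoxd9 (1800 bp).

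In numbers over all genes, a peak of the NMDA list lay within 10 kb of 0 of 39 Hox genes, against 8.94% of all protein-coding genes. The exact interval for 0 of 39 is 0 to 9.03%, which holds the share of all genes, and it is too narrow because the genes of a cluster are not independent. The count was also 0 within 2 kb (7.21% of all genes), by overlap (6.57%) and within 50 kb (16.9%). The share of all genes at 50 kb lies above that interval, which is too narrow for the reason given. A resting peak was found near 26 of 39 Hox genes at 10 kb (66.7%), against 38.2% of all. None of these 26 had an NMDA peak as well, which follows from the 0 of 39 and is not a further result. Of all 8371 genes near a resting peak, 19% had one. For resting peaks the order depended on the distance. Within 2 kb the share was 12 of 39 (30.8%) against 28.6%, and by overlap 5 of 39 (12.8%) against 25.4%, so that Hox genes were then below all genes. Hox genes are short, with a median annotated length of 3.74 kb against 17.1 kb, and the part of gene length in these shares was not tested. Within 50 kb, 37 of 39 had a resting peak (94.9%, against 62.3%), and the 2 without were Hoxb1 and Hoxc13.

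The median distance from a Hox gene to the nearest NMDA peak was 549 kb, against 351 kb for all protein-coding genes. To the nearest resting peak it was 5.72 kb, against 24.3 kb. The median number of resting peaks within 50 kb was 2 for Hox genes and 1 for all genes. Among genes with a resting peak within 10 kb, the strongest such peak had a median column 8 of 44.7 for the 26 Hox genes, several of which share a peak, and 32.1 for all 8371 genes.

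**Figure D3:**
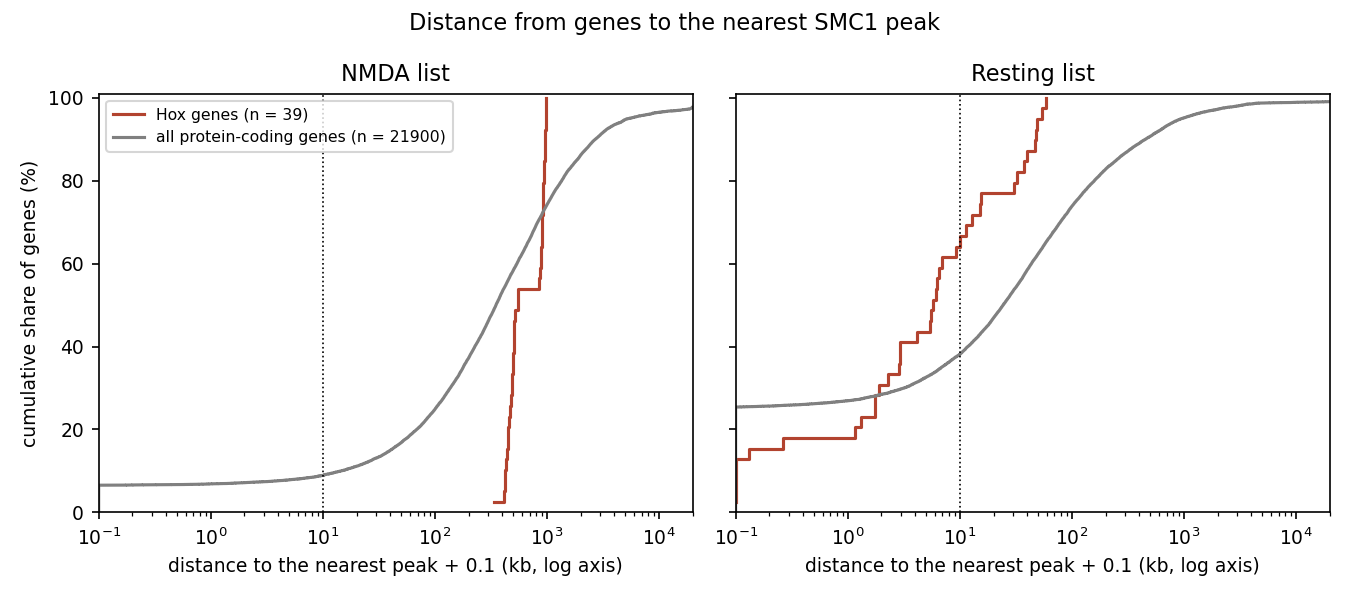
Cumulative share of genes (vertical, percent) by distance to the nearest SMC1 peak plus 0.1 kb (horizontal, log axis) for the NMDA list (left) and the resting list (right), with Hox genes in red, all protein-coding genes in grey and a dotted line at 10 kb. Hox genes start at 334 kb on the left, and on the right their curve lies below that of all genes up to about 1 kb and above it from 10 kb on.

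The nearest NMDA peaks were far from the clusters on every side. The closest, at 95858484 to 95860078 on chromosome 11 (column 8 of 18.7), was 334 kb from Hoxb13 and nearest to B4galnt2, a glycosyltransferase gene. On the other side of HoxB the nearest overlapped Cdk5rap3 (21.1), 542 kb away. For HoxA the nearest overlapped Tax1bp1 (21.0), an autophagy receptor gene, at 453 kb. On the other side of HoxA the nearest (18.7) was 562 kb away and lay 1556 bp from the sorting nexin gene Snx10. For HoxC the nearest overlapped Eif4b (20.4) at 847 kb, with none between the cluster and the other end of the chromosome. For HoxD they overlapped Hnrnpa3 (19.5), which encodes an RNA-binding protein, at 894 kb, and Sp9 (25.5), a transcription factor gene, at 1393 kb. Of all protein-coding genes, 51.2% were farther from an NMDA peak than Hoxb13, the Hox gene nearest to one, and 39.6% were farther than the median Hox gene.

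None of the 23 resting peaks in the windows overlapped an NMDA peak (0%, interval 0 to 14.8%), against 10.7% of the whole resting list (10.1 to 11.2%). Among all 11461 resting peaks within the range of column 8 seen in the Hox windows, 8.68% did. Both of these shares lie inside the interval for the Hox peaks. At the density of the whole NMDA list, 1.303 NMDA peaks would fall in windows of this total length. That figure takes NMDA peaks as evenly spread, whereas resting peaks were denser in the windows, at 11.0 per Mb against 4.57 over the whole list. Whether the absence of NMDA peaks from the Hox windows goes beyond the general scarcity of the NMDA list was not tested.

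In strength the Hox peaks lay around the middle of the resting list. Their column 8 had a median of 32.1 and a range of 17.7 to 69.9 (n = 23 peaks), against a median of 30.2 in the list. The median lay at the 54.9 percentile of the list, and 13 of 23 peaks were above the list median. The 11 peaks inside the clusters had a median of 32.1 and the 12 in the flanks 32.5. Their widths had a median of 581 bp, against 644 bp in the list.

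The replicate columns set a limit on these ranks. The median of the first column was 18.6 in the Hox windows, against 15.0 in the list, and that of the second 11.98 against 14.5. The median Hox peak therefore lay at the 64.8 percentile by the first column alone and at the 34.2 percentile by the second alone. In 13 of 23 peaks the first column was the higher one (56.5%, against 54.1% of the list), and the ratio of first to second lay between 0.557 and 3.30. The ratios were highest at the peaks between Hoxb5 and Hoxb4 (3.30), next to Hoxa13 (3.29) and next to Hoxd9 (3.23), and in the HoxC flank near Cbx5 (3.17).

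**Figure D4:**
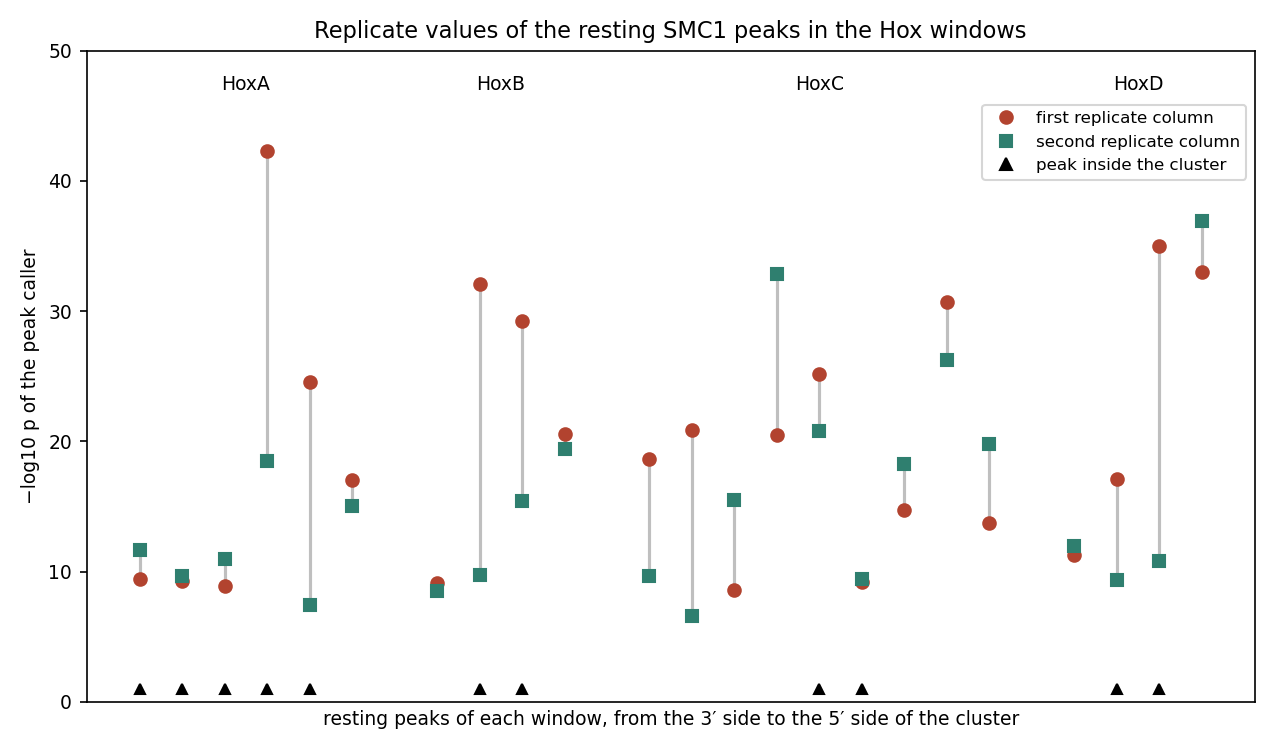
The −log10 p of each replicate column (vertical) for the 23 resting peaks of the Hox windows, ordered from the 3′ to the 5′ side of each cluster; grey lines join the columns of a peak and triangles mark peaks inside a cluster. The columns are close at 3 weak HoxA peaks and far apart at the peak between Hoxa7 and Hoxa9, with 42.3 in the first and 18.5 in the second.

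The flanks held the strongest peak of the 4 windows. It lay 6.04 kb beyond Hoxd13 at 74661491 to 74662183, over the 5′ edge of the annotated body of Evx2, a homeobox gene that borders HoxD, and the noncoding gene Gm31790. Its column 8 was 69.9, with 33.0 and 36.9 in the replicate columns, at rank 733 of 12359. The other peak in the HoxD flanks was weak (23.3) and 199 kb from Hoxd1, near the edge of the window.

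HoxA had a peak at a comparable position, between Hoxa13 and Evx1, the homeobox gene that borders that cluster. It lay at 52305711 to 52306581, 6.92 kb from Evx1 and 44.8 kb from Hoxa13, with 32.1 (17.0 and 15.0). In the HoxB flanks there was a peak inside Ttll6, a tubulin-modifying enzyme gene, with 40.0 (20.6 and 19.4), 48.2 kb from Hoxb13, and a weak one inside Skap1 (17.7), an adaptor gene of T cells. HoxC had the most flanking peaks. The strongest were at 102742518 to 102743225, 178 kb from Hoxc13 with 57.0 (30.7 and 26.3), and inside Smug1, a DNA repair gene, 129 kb from Hoxc4 with 53.4 (20.5 and 32.8). The other 5 ranged from 24.1 to 33.6.

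The clusters also hold microRNA genes, of which the miR-10 and miR-196 families are known to target Hox transcripts. Their mature sequences are printed because copies with 1 shared seed sit at like places in different clusters. Capitals mark the seed, bases 2 to 8, and the sequences are from RefSeq, GRCm38.p6.
mmu-miR-10a-5p: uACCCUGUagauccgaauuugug
mmu-miR-10b-5p: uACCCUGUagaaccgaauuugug
mmu-miR-196a-5p: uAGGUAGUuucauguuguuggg
mmu-miR-196b-5p: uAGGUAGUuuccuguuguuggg
mmu-miR-615-3p: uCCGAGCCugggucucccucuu

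The pair with the seed ACCCUGU comes from Mir10a, beside Hoxb4, and Mir10b, beside Hoxd4, which were 5.07 and 9.81 kb from the nearest resting peak. The genes with the seed AGGUAGU were 8.05 kb (Mir196b in HoxA), 13.5 kb (Mir196a-1 in HoxB) and 13.8 kb (Mir196a-2 in HoxC) from one, in each case the peak past the 3′ end of the group 9 gene. Mir615 lay inside Hoxc5, 826 bp from the peak at its start. Of these 6 genes 0 had an NMDA peak within 10 kb and 4 a resting peak, against 4.89% and 21.5% of all 1228 microRNA genes. Of 8 long noncoding genes of the clusters 0 had an NMDA peak and 5 a resting one, against 4.49% and 24.7% of all 12731 such genes. Hotair, Hotairm1 and Haglr, which lie at the posterior side of HoxC and the anterior ends of HoxA and HoxD, had none and were 32.2 to 39.3 kb from the nearest. Both sets of genes lie in the Hox windows. Their counts therefore reuse the peaks described above and are not separate results.

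Genes that act with or on Hox genes were counted from lists by role, at 10 kb, where 8.94% of all protein-coding genes had an NMDA peak and 38.2% a resting one. Among the TALE cofactors, homeodomain proteins that bind DNA together with Hox proteins, 2 of 9 had an NMDA peak and 5 of 9 a resting one. Meis1 had peaks in both lists (26.1 in the NMDA list, 45.5 in the resting list), and Meis2 only a resting peak (43.3). Of 6 ParaHox and Cdx genes, relatives of the Hox genes outside the clusters, 0 had a peak in either list.

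Genes for Polycomb repressive complex 1, which binds silent Hox clusters, had an NMDA peak in 2 of 13 cases (8.94% of all genes) and a resting peak in 10 of 13 (38.2% of all genes). The strongest resting peak was at Phc2 (20.1 in the NMDA list, 66.4 in the resting list), followed by that at Cbx7 (43.7), which had no NMDA peak. For Polycomb repressive complex 2, which methylates histone H3, the counts were 2 of 7 and 4 of 7, led by Jarid2 (43.6 at rest). The trithorax group, which keeps Hox genes active, had an NMDA peak in 4 of 7 cases and a resting peak in 1 of 7, beside the same 8.94% and 38.2%. The 1 gene with both was Kmt2a (40.5 in the NMDA list, 23.8 in the resting list), a histone methyltransferase gene, and Kmt2b (22.1), Ash1l (23.4) and Wdr5 (21.6) had only an NMDA peak. Lists this short were not tested.

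Set beside other clustered gene families, the 492 kb of Hox clusters held 0 NMDA and 11 resting peaks. The clustered protocadherins, 57 genes over 912 kb, held 0 and 5, and the histone genes of chromosome 13 held 1 and 2 in a block of 21 genes over 328 kb and 0 and 3 in a block of 26 genes over 404 kb. These counts were not tested against each other.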

How the data were processed

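Per the submitters' processing notes, BWA, SAMtools, MACS2, FastQC and Trimmomatic were used with builds mm10 and GRCm38.p6, and no settings were named. The deposited lists, 1 per condition from 2 replicates, have no header and follow the column layout of the irreproducible discovery rate (IDR) tool. The authors' columns hold the −log10 p of each replicate, without replicate numbers, column 8, which equals their sum on every line, a scaled IDR score, the −log10 global IDR (an IDR of at most 0.05 on every line) and a summit offset. Input libraries were not analysed here.

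Genes came from the RefSeq table of GRCm38.p6, which lacks strand and exons; strand came from RefSeq promoters. Distances count bases between peak and annotated gene body, and 1 shared bp is overlap. Counts were made with Python 3.11.15, pandas 2.3.3 and scipy 1.17.1, and the interval functions were tested on simulated data. Members, windows and gene lists were chosen with earlier results of these data known. Named by rule are Hox genes with a resting peak within 2 kb, all peaks inside clusters, the 2 strongest in the flanks of each cluster, the nearest NMDA peaks, and up to 3 genes with the strongest peak of each further list; other names were chosen after their values were seen. The planned motif search in peaks needs a genome and was not run. Some genes that the naming rule selects are not reported here.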

Additional observations from a re-analysis of the deposited data

How the results depend on the processing

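The 0 NMDA peaks in the Hox windows became 2 with flanks of 500 kb. The 23 resting peaks became 14 with flanks of 100 kb and 40 with flanks of 500 kb. At an IDR up to 0.01 they became 12, while 7037 of all 12359 resting peaks were left. Their median column 8 was then 45.3, and 19 Hox genes were near a peak. The list median and the share of all genes at that IDR are not given here, so neither value is compared with the whole list. At that IDR 5 peaks inside the clusters were left. In HoxA only the peak between Hoxa7 and Hoxa9 was among them, and the HoxC peak past Hoxc9 was not. Hox genes with a resting peak numbered 12 within 2 kb and 5 by overlap, against 26 within 10 kb. The resting share lay 28.4 points above that of all genes, and 61.8 points above with each cluster counted once, a rise fixed by setting whole clusters (4 of 4 with a peak) against single genes. Leaving out 1 replicate column put the median strength between the 34.2 and 64.8 percentile. The density inside clusters was 2.98 times that in flanks, and 2.32 to 5.96 times under the alternatives; with flanks of 100 kb it rests on 3 flanking peaks. No Hox window peak overlapped an NMDA peak under any of the 4 alternatives tried, of which only flanks of 500 kb could have changed the result. The others were a stricter overlap, a distance of 5 kb and a stricter resting IDR. They were bound to give 0, because no NMDA peak lay closer than 285 kb to a Hox window peak. No paired analysis was possible because each condition has 1 list, its columns carry no replicate numbers and no test was made. Unknown depth and the small NMDA list limit every statement on absent NMDA peaks.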
